A study of Homo sapiens with 6 samples.

Results

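The genes described here are RSAD2, its neighbour CMPK2, and 7 further genes of nucleotide metabolism with links to antiviral defence, SAMHD1, TYMP, NT5C3A, NT5DC2, CMPK1, DCK and TYMS. They were chosen by name, without a threshold on any measured value, and make up 9 of the 62710 genes in the expression table. Earlier results of these data were known when they were chosen. The series measured mRNA in HT1080, an established human fibrosarcoma line, in 3 libraries of untreated cells and 3 libraries of cells given 20 ng/mL IFNβ for 24 h. Both groups carried the same cells and medium, and IFNβ was the one stated difference between them. The sample labels call the agent human IFNβ, as do the cell culture methods of the study for this line, whereas its sequencing methods name mouse IFNβ. The methods of the study describe its in vitro experiments in general as independent biological replicates, but neither they nor the labels say that the libraries of a group came from separate cultures. Every p-value below therefore measures the spread between these libraries, which may be technical.

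Interferons switch on a set of genes that limit virus growth, and several of them act on the small pool of nucleotides that a virus needs for copying its genome. Viperin, the product of RSAD2, is a radical SAM enzyme with an iron-sulfur cluster that turns CTP into ddhCTP, a nucleotide that stops some viral polymerases. CMPK2 is a mitochondrial kinase that phosphorylates UMP and CMP and can supply the CTP that viperin uses, while SAMHD1 breaks down deoxynucleoside triphosphates. The 5′-nucleotidases, thymidine phosphorylase, deoxycytidine kinase and thymidylate synthase set the balance between nucleosides, monophosphates and triphosphates in ordinary metabolism.

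Levels are given as FPKM, the fragments counted on a gene scaled for its transcript length and for the size of the library, and changes as log2 fold changes of FPKM + 0.1, which understate the change of genes at low level. A gene was called a differentially expressed gene (DEG) where the adjusted p-value of limma with Benjamini-Hochberg adjustment over 20716 tested genes was under 0.05 and the change at least 2-fold. All 9 genes had a mean of at least 0.1 FPKM over the 6 libraries and were tested, RSAD2 because of its IFNβ libraries alone. After IFNβ 5 of them were called higher (RSAD2, CMPK2, SAMHD1, NT5C3A and TYMP) and 1 was called lower (NT5DC2), which is 66.7% of the 9, against 4.22% of all tested genes (3.49% called higher and 0.739% called lower). The other 3 genes, CMPK1, DCK and TYMS, were lower by less than 2-fold, and their adjusted p-values also passed, as did those of 32.7% of all tested genes. The untreated and IFNβ libraries did not overlap for any of the 9 genes, but this was so for 46.6% of all tested genes. The median log2 fold change was 1.11 over the 9 genes and 0.0 over all tested genes. The 9 genes were chosen with earlier results of these data known, so these shares and medians do not test the group.

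**Figure D1:**
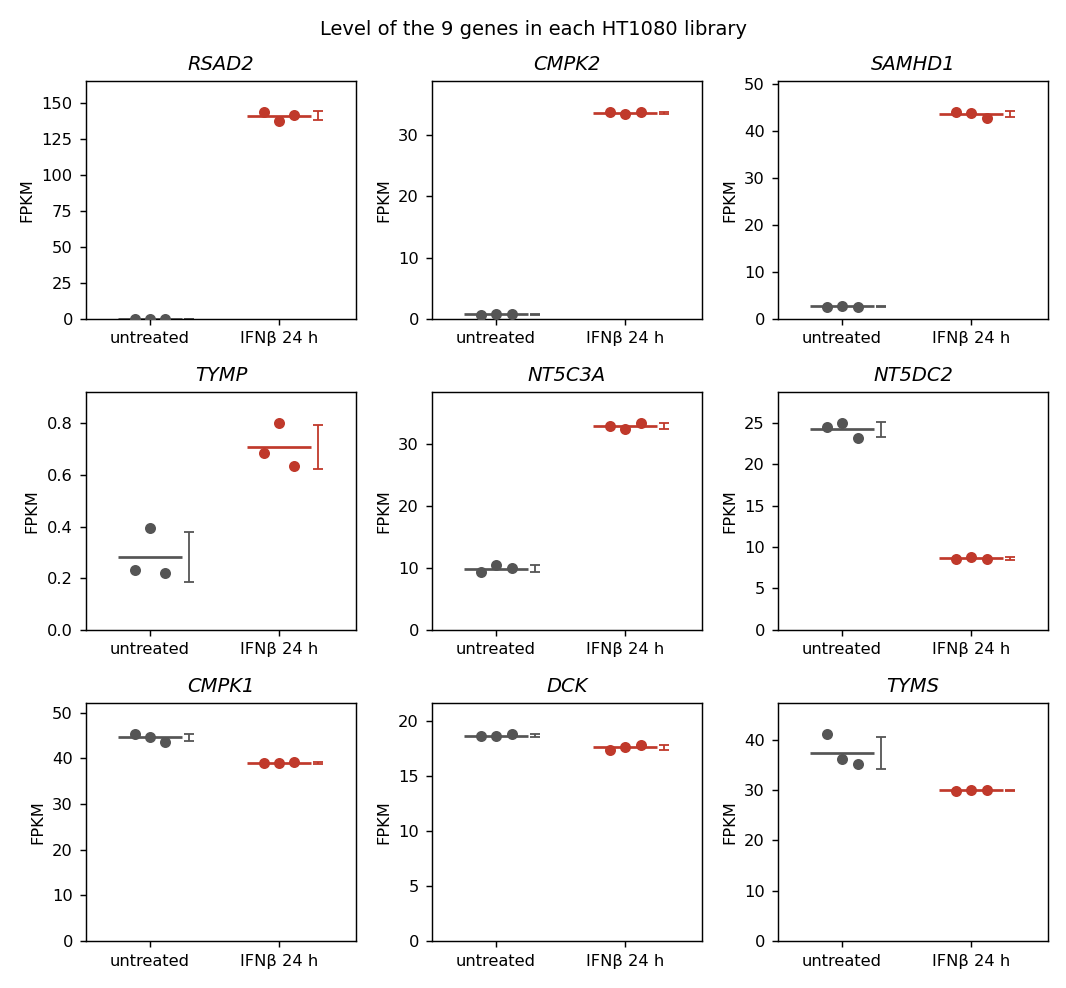
FPKM of the 9 genes in each HT1080 library, 1 panel per gene with its own axis from 0, for 3 untreated libraries (grey) and 3 libraries after 24 h of IFNβ (red). Points are libraries, horizontal lines are means and bars at the side are S.D. RSAD2 went from near 0 to between 138 and 144 FPKM, while CMPK1 and DCK moved by a small part of their level.

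RSAD2 (ENSG00000134321, chr2:6865806-6898239, plus strand, GENCODE 29 on GRCh38) had the largest change of the 9 genes. Its level in the untreated libraries was 0.0464, 0.0357 and 0 FPKM, and in the IFNβ libraries 144, 138 and 142 FPKM. RSAD2 was thus near the detection limit in each untreated library and tightly grouped after treatment. The mean went from 0.0274 ± 0.0243 FPKM to 141 ± 3.11 FPKM (mean ± S.D., n = 3, as for every ± below), a log2 fold change of 10.13 (SE 0.14, 95% interval 9.80 to 10.47, limma adjusted p = 7.3e-08). The untreated values stand for 6, 6 and 0 fragments, and in the library at 0 a level of up to 0.0161 FPKM (3 fragments) could have been missed. The 12 untreated fragments against 67697 after IFNβ give a fold of 5690 per library fragment, with an exact 95% interval of 3260 to 11000 that covers counting error only. Because so few fragments lie behind the untreated level, the log2 value depended on the number added before the logarithm and was 7.11 with 1 FPKM added. Among the tested genes RSAD2 was ranked 20401 of 20716 by level in untreated cells and 170 after IFNβ.

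CMPK2 (ENSG00000134326, chr2:6840570-6866635, minus strand), the mitochondrial UMP-CMP kinase, lies head to head with RSAD2. It was measured at 0.618, 0.829 and 0.720 FPKM in untreated cells and at 33.8, 33.5 and 33.8 FPKM after IFNβ. Unlike RSAD2, CMPK2 had a clear level before treatment, and the 3 IFNβ libraries were almost level with each other. The mean was 0.722 ± 0.106 FPKM without and 33.7 ± 0.194 FPKM with IFNβ (n = 3), a log2 fold change of 5.37 (SE 0.09, 95% interval 5.15 to 5.59, limma adjusted p = 1.9e-07). The exons of the gene pair share 14 bases on opposite strands, which is 0.290% of the RSAD2 and 0.325% of the CMPK2 exon bases. After IFNβ the level of CMPK2 per length was 0.239 ± 0.00400 of that of RSAD2 in the same library.

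Short stretches of DNA in front of the RSAD2 starts are shown, since the upstream start lies among those of CMPK2. RefSeq on GRCh38.p14 gives RSAD2 an upstream start at base 6865885 and a downstream start at base 6877777 of chromosome 2, 11892 bases apart. It gives CMPK2 starts at 6865819, 6865907 and 6866635, of which the first is 66 bases and the next 22 bases from the upstream RSAD2 start. In windows of 250 bases before to 50 bases after a start, both strands were searched for 2 copies of GAAA with any 2 bases (NN) between them, a core of interferon-stimulated response elements, and for TTCNNNGAA, a core of interferon-gamma-activated (GAS) sites. The spaced GAAA pair was found in 3.57% and TTCNNNGAA in 7.66% of all 35116 windows. Of the 14 windows of the 9 genes, the window at the downstream RSAD2 start alone held the spaced GAAA pair, and TTCNNNGAA was in none of them. The stretch from 250 to 113 bases before that start, plus strand, has the motif as its reverse complement in capitals:
RSAD2 chr2:6877527-6877664: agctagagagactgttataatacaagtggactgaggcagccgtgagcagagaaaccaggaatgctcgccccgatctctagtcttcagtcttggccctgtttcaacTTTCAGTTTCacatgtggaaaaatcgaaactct
The shorter spacing GAAANGAAA, which was added after the sequences had been seen, was in 3.12% of all windows, 0.125% held at least 2 and 1 window (0.00285%) held 4. That window is the one at the upstream RSAD2 start. Its rarity tests nothing, because the pattern was added after this sequence had been seen. The 4 matches lie 152, 118, 84 and 60 bases before that start. They are shown from the plus strand with 6 bases on either side and the match in capitals:
152 before, chr2:6865727-6865747: gcctcgGAAACGAAAcctggc
118 before, chr2:6865761-6865781: cggcggGAAACGAAAcccgga
84 before, chr2:6865795-6865815: cagcggGAAACGAAAgcgaag
60 before, chr2:6865819-6865839: tgcgggGAAACGAAAgccgga
The match is the same in all 4, and the bases around it differ. The first 3 lie in an annotated untranslated exon of a CMPK2 transcript and the last in one of an RSAD2 transcript (GENCODE 29), so the repeats lie where annotated transcripts of the gene pair meet. The window at the CMPK2 start at 6865819 holds the last 2 of the 4, and no window of SAMHD1, TYMP, NT5C3A, NT5DC2, CMPK1, DCK or TYMS held any of the 3 patterns. A match to these letters is a description and not a measured binding site, and no binding was measured here.

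Around RSAD2, 16 annotated genes have a start within 500 kb. Of these, 7 were listed at 0 in each of the 6 libraries and 8 were tested. RSAD2, CMPK2 and NRIR rose and were called, and RNF144A fell without reaching 2-fold. NRIR (ENSG00000225964), a long noncoding RNA known as a negative regulator of the interferon response, begins 105 bases past the 3′ end of CMPK2 on the same strand. Its level was 0, 0.0613 and 0.0663 FPKM in untreated cells and 0.626, 0.713 and 0.453 FPKM after IFNβ. The NRIR groups did not overlap, and after IFNβ its level was far under those of CMPK2 and RSAD2. NRIR, like RSAD2, reached the minimum mean of 0.1 FPKM because of its IFNβ libraries alone, so a difference was built into its being tested. The log2 fold change of NRIR was 2.31 (SE 0.30, limma adjusted p = 0.0016), from 11 fragments in all untreated libraries and 138 after IFNβ, a fold of 12.7 with an exact 95% counting interval of 6.86 to 26. RNF144A, a ubiquitin ligase gene on the far side of RSAD2, was at 13.8 ± 0.836 FPKM without and 9.60 ± 0.210 FPKM with IFNβ (log2 fold change −0.52, SE 0.05, limma adjusted p = 3.7e-04). Its antisense neighbour GRASLND (RNF144A-AS1) was at 1.40 ± 0.101 and 1.40 ± 0.114 FPKM (log2 fold change 0.00, 95% interval −0.23 to 0.23, limma adjusted p = 0.99).

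**Figure D2:**
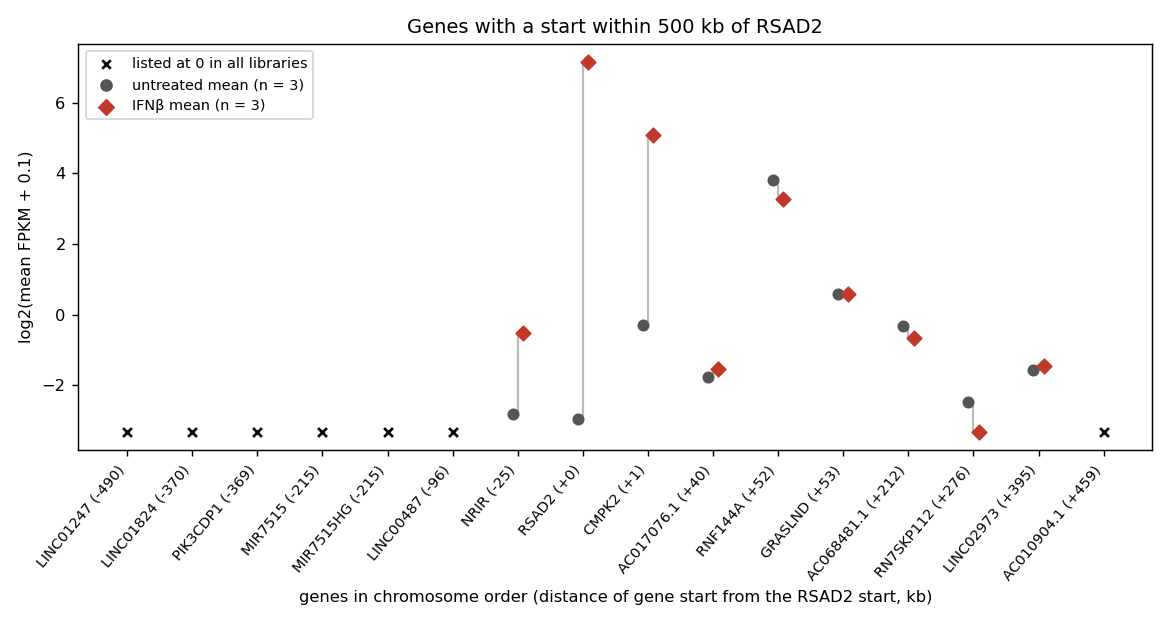
Mean level, as log2(mean FPKM + 0.1), of the 16 genes with a start within 500 kb of the RSAD2 start, in chromosome order with the distance in kb, for untreated (grey circles) and IFNβ libraries (red diamonds, n = 3 each). Crosses mark the 7 genes listed at 0 in all libraries, and the wide gaps between circle and diamond are those of NRIR, RSAD2 and CMPK2.

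By a distance over the 6 libraries (Euclidean, on log2 of FPKM + 0.1), the genes most like RSAD2 were BST2 (distance 1.76), OAS2 (2.94) and MX2 (2.98). Those most like CMPK2 were DHX58 (0.68), BATF2 (1.24) and OAS1 (1.31). DHX58, which codes for the RNA sensor LGP2, was at 0.878 ± 0.0180 FPKM in untreated and 28.1 ± 0.125 FPKM in IFNβ libraries, next to 0.722 and 33.7 FPKM for CMPK2. BST2, which codes for tetherin, was at 0.0623 ± 0.0267 and 264 ± 2.48 FPKM, a higher treated level than that of RSAD2. As a check of the labels, 7 of 7 common interferon-stimulated genes were called higher, from IRF9 at a log2 fold change of 2.79 to IFIT1 at 8.67.

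CMPK1 (ENSG00000162368, chr1:47333797-47378839, plus strand) is the cytosolic UMP-CMP kinase, and was compared with the mitochondrial enzyme in the same libraries. It was measured at 45.3, 44.8 and 43.7 FPKM in untreated and 39.0, 38.9 and 39.3 FPKM in IFNβ libraries. CMPK1 was therefore high in both groups and slightly lower in each IFNβ library. The log2 fold change was −0.19 (SE 0.02, 95% interval −0.24 to −0.14, limma adjusted p = 6.1e-04). The level of CMPK2 per length was 0.0162 ± 0.00243 of that of CMPK1 in untreated and 0.863 ± 0.00363 in IFNβ libraries. CMPK2 thus made up 1.59% ± 0.236 of the summed FPKM of the pair before and 46.3% ± 0.105 after treatment, and the sum went from 45.3 ± 0.768 to 72.8 ± 0.368 FPKM (n = 3).

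SAMHD1 (ENSG00000101347, chr20:36889773-36951901, minus strand) codes for the deoxynucleotide triphosphohydrolase. Its level was 2.59, 2.73 and 2.52 FPKM in untreated cells, and 44.1, 43.8 and 42.9 FPKM after IFNβ. The untreated libraries showed a low but clear level, and each IFNβ library lay far above it. The means of 2.61 ± 0.108 and 43.6 ± 0.610 FPKM (n = 3) gave a log2 fold change of 4.01 (SE 0.04, 95% interval 3.93 to 4.10, limma adjusted p = 9.0e-09). TLDC2 on the opposite strand covers 10.3% of the SAMHD1 exon bases, and it was at 0.0145 ± 0.0134 FPKM without and 0.471 ± 0.0167 FPKM with IFNβ. Whether fragments were counted by strand is not stated, so fragments in that overlap cannot be told apart.

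Ribonucleotide reductase makes the deoxynucleoside diphosphates from which the substrates of SAMHD1 are formed, and its subunits were set beside SAMHD1. RRM1, the large subunit, fell from 58.1 ± 1.92 to 43.0 ± 0.677 FPKM (log2 fold change −0.43, SE 0.03, limma adjusted p = 9.3e-05). RRM2, the small subunit used in S phase, rose from 32.3 ± 0.138 to 36.7 ± 0.511 FPKM (0.18, SE 0.02, limma adjusted p = 5.6e-04). RRM2B, the small subunit used outside S phase, was at 20.2 ± 0.431 and 20.7 ± 0.444 FPKM (limma adjusted p = 0.35). SAMHD1 stood at 0.0450 ± 0.00230 of the RRM1 level in untreated and at 1.01 ± 0.00852 in IFNβ libraries. Of 5 genes linked to SAMHD1 phosphorylation, CCNA2 (cyclin A2) fell from 82.9 ± 1.57 to 70.5 ± 1.65 FPKM (log2 fold change −0.23, limma adjusted p = 6.9e-04). The kinase inhibitors CDKN1A (log2 fold change 0.22, limma adjusted p = 0.0027) and CDKN1B (0.34, limma adjusted p = 0.011) rose. Neither CDK1 (limma adjusted p = 0.60) nor CDK2 (limma adjusted p = 0.15) passed the test.

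NT5C3A (ENSG00000122643, chr7:33014113-33062797, minus strand), a cytosolic 5′-nucleotidase that removes the phosphate from pyrimidine monophosphates, was at 9.24, 10.4 and 9.95 FPKM in untreated libraries. After IFNβ it was at 32.9, 32.4 and 33.3 FPKM. The gene was well expressed before treatment and rose evenly in the 3 treated libraries. The means were 9.85 ± 0.566 and 32.9 ± 0.462 FPKM, and the log2 fold change was 1.73 (SE 0.04, 95% interval 1.63 to 1.83, limma adjusted p = 1.2e-06). No exon of another gene overlaps it. Its paralog NT5C3B fell from 15.1 ± 0.282 to 10.8 ± 0.475 FPKM (log2 fold change −0.48, SE 0.04, limma adjusted p = 2.0e-04), so that the NT5C3A level went from 0.652 ± 0.0314 to 3.04 ± 0.110 of that of NT5C3B. NT5C3A provided 24.5% ± 1.27 of the summed FPKM of 8 nucleotidases in untreated and 56.6% ± 0.999 in IFNβ libraries. The sum itself was 40.1 ± 0.225 FPKM without and 58.1 ± 1.11 FPKM with IFNβ.

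**Figure D3:**
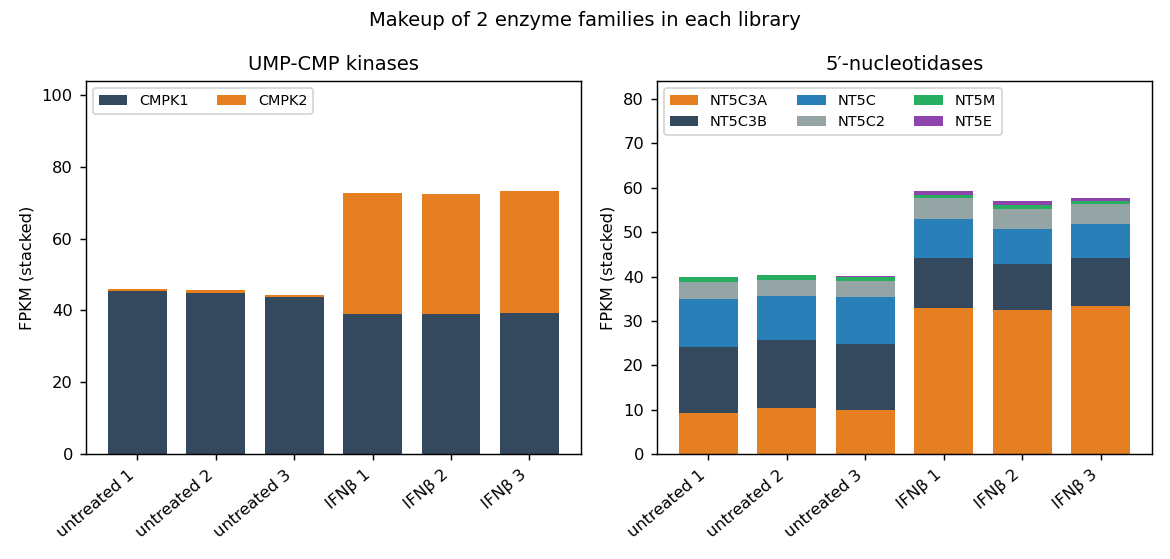
Stacked FPKM in each of the 6 libraries for the pair of UMP-CMP kinases (left) and for the 5′-nucleotidases (right), with axes from 0. NT5C1A and NT5C1B, which belong to the 8 summed nucleotidases, were at most 0.1 FPKM and are not drawn. CMPK2 and NT5C3A, in orange, take up most of the growth of each stack after IFNβ.

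NT5DC2 (ENSG00000168268, chr3:52524385-52535054, minus strand), a haloacid dehalogenase relative of the nucleotidases whose substrate is not well known, was the one of the 9 genes called lower. It was at 24.5, 25 and 23.2 FPKM without IFNβ and at 8.51, 8.77 and 8.61 FPKM with it. Each treated library was well under the lowest untreated one. The mean went from 24.2 ± 0.923 to 8.63 ± 0.131 FPKM, a log2 fold change of −1.48 (SE 0.03, 95% interval −1.56 to −1.40, limma adjusted p = 7.6e-07), and NT5DC2 was 141 from the bottom when all tested genes were ordered by log2 fold change. The study also lists NT5DC2 among the DEGs that it drew from these same libraries, so its direction is not independent evidence. SMIM4 and STAB1 on the opposite strand cover 9.83% of its exon bases. SMIM4 was at 2.11 ± 0.251 and 1.73 ± 0.0881 FPKM (limma adjusted p = 0.083) and STAB1 was under 0.1 FPKM. Of its relatives, NT5DC3 rose from 7.03 ± 0.30 to 9.04 ± 0.276 FPKM (log2 fold change 0.36, limma adjusted p = 0.0011) and NT5DC1 was at 6.21 ± 0.170 and 5.63 ± 0.198 FPKM (limma adjusted p = 0.040).

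TYMP (ENSG00000025708, chr22:50525752-50530056, minus strand) codes for thymidine phosphorylase, which splits thymidine into thymine and a sugar phosphate. It was low in this line, at 0.231, 0.393 and 0.219 FPKM in untreated and 0.686, 0.801 and 0.635 FPKM in IFNβ libraries. The untreated library at 0.393 lay apart from the other two but still under the lowest treated library. The means were 0.281 ± 0.0972 and 0.707 ± 0.0851 FPKM, with a log2 fold change of 1.11 (SE 0.22, 95% interval 0.58 to 1.63, limma adjusted p = 0.0095), from 87 fragments in untreated and 214 in IFNβ libraries. The interval reaches under 2-fold, and the call was lost without the third untreated library (0.99), with 1 FPKM added (0.42) and with quantile normalization (0.97). SCO2, on the same strand, shares 10.2% of the TYMP exon bases and was itself called, at 0.308 ± 0.140 and 0.865 ± 0.0988 FPKM (log2 fold change 1.31, limma adjusted p = 0.017). ODF3B shares another 10.5% (log2 fold change 0.33, limma adjusted p = 0.28), and how fragments in shared exons were split is not stated.

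**Figure D4:**
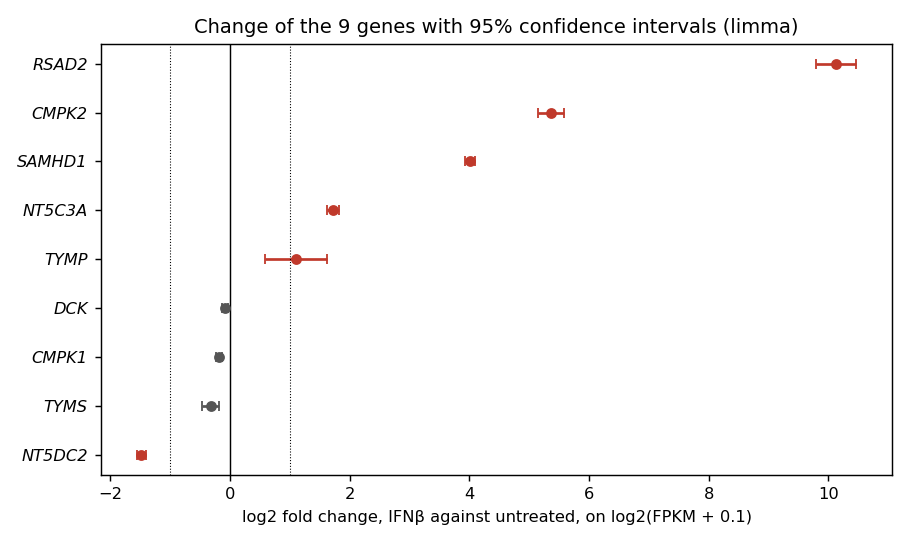
Log2 fold change of the 9 genes after IFNβ, on log2(FPKM + 0.1), with 95% confidence intervals from limma over 3 libraries per group. Red points passed the adjusted p and the 2-fold threshold (dotted lines), grey points did not reach 2-fold, and the TYMP interval crosses the dotted line.

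DCK (ENSG00000156136, chr4:70992538-71030914, plus strand), deoxycytidine kinase, starts the salvage of deoxynucleosides. Its level was 18.6, 18.6 and 18.8 FPKM in untreated and 17.4, 17.6 and 17.8 FPKM in IFNβ libraries, groups that were close together without overlapping. The log2 fold change was −0.09 (SE 0.02, 95% interval −0.13 to −0.04, limma adjusted p = 0.016). The adjusted p was above the threshold without the third untreated (0.056, limma) or the first IFNβ library (0.055, limma). This was the smallest change of the 9 genes, and it was near the median of −0.07 over the 4419 genes with a mean of at least 10 FPKM. Among the other deoxynucleoside kinases, TK1 (cytosolic thymidine kinase) rose from 59.9 ± 1.2 to 64.5 ± 0.660 FPKM (log2 fold change 0.11, limma adjusted p = 0.0085), whereas TK2 (limma adjusted p = 0.66) and DGUOK (0.17, limma) did not pass.

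TYMS (ENSG00000176890, chr18:657604-673578, plus strand) codes for thymidylate synthase, which makes dTMP from dUMP. It was at 41.1, 36.1 and 35.1 FPKM without and at 29.9, 30.0 and 30.0 FPKM with IFNβ. The untreated libraries spread over a wider range, with the first above the other two, and the treated ones were nearly equal. The means of 37.5 ± 3.17 and 29.9 ± 0.0207 FPKM gave a log2 fold change of −0.32 (SE 0.06, 95% interval −0.46 to −0.18, limma adjusted p = 0.0065). Other genes, mainly ENOSF1 on the opposite strand, cover 46.6% of the TYMS exon bases. ENOSF1 was at 3.46 ± 0.151 and 3.23 ± 0.0758 FPKM (limma adjusted p = 0.21).

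In the untreated libraries the order by level per length was CMPK1, TYMS, NT5DC2, DCK, NT5C3A, SAMHD1, CMPK2, TYMP and RSAD2, and the ranges of neighbours in that order did not overlap. After IFNβ it was RSAD2, SAMHD1, CMPK1, CMPK2, NT5C3A, TYMS, DCK, NT5DC2 and TYMP. RSAD2 thus went from the last to the first place. CMPK2 and NT5C3A were the closest neighbours after IFNβ, with the lowest CMPK2 library at 33.5 and the highest NT5C3A library at 33.3 FPKM.

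To place the 9 genes in their pathway, 93 other genes of nucleotide metabolism, iron-sulfur delivery and SAMHD1 phosphorylation (5 cell cycle regulators) were read from fixed lists, of which 83 were tested. Of these, 39 (47.0%) fell and 9 (10.8%) rose by adjusted p (limma), against 17.5% and 15.2% of all tested genes, and 35 did not pass. The shares over all tested genes include genes down to a mean of 0.1 FPKM, and shares among genes of like level were not computed. The median log2 fold change of the 83 genes was −0.14. Over the genes with a mean of at least 10 FPKM the median was −0.07, with quartiles of −0.20 and 0.09. Only 1 of the 83 was called with the 2-fold threshold, where 4.22% of all tested genes were called. This gene was NT5E, which codes for the cell surface nucleotidase CD73 that makes adenosine from AMP. NT5E was at 0.106, 0.0967 and 0.101 FPKM in untreated and 0.695, 0.954 and 0.748 FPKM in IFNβ libraries. It was low throughout, with no overlap between the groups, and its log2 fold change was 2.15 (SE 0.18, limma adjusted p = 2.8e-04). The 39 fragments without and 303 with IFNβ give a fold of 7.84 (exact 95% counting interval 5.6 to 11.2). With 1 FPKM added, the log2 fold changes of NT5E (0.71) and NRIR (0.61) fell under the 2-fold threshold.

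Viperin receives its iron-sulfur cluster from the cytosolic assembly machinery, and 8 genes of that machinery were read beside RSAD2. Of these, 3 fell and 5 did not pass, from CIAPIN1 at −0.29 (limma adjusted p = 2.1e-04) to CIAO2B at 0.05 (limma adjusted p = 0.79). The count that fell was 2 without the second or the third untreated or the first or the second IFNβ library. It was 4 without the first untreated library. For this list and those that follow, the shares over all tested genes were 17.5% falling and 15.2% rising by adjusted p (limma). CIAO1, which binds viperin, was at 21.6 ± 1.05 and 20.8 ± 0.409 FPKM (limma adjusted p = 0.39). Of 8 genes of thymidylate and dUTP metabolism 5 fell by adjusted p (limma). Of 11 genes of purine synthesis 7 fell, with IMPDH1 lowest at −0.46 (limma adjusted p = 9.7e-05), and of 5 genes of pyrimidine synthesis 2 fell, with CAD lowest at −0.24 (limma adjusted p = 0.0015). The count for pyrimidine synthesis was 1 without the second or the third untreated or the second or the third IFNβ library.

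Other nucleotide kinases moved both ways, 7 of 15 falling and 1 rising. The gene that rose was GUK1 (guanylate kinase), from 22.8 ± 0.771 to 32.7 ± 0.386 FPKM (log2 fold change 0.52, SE 0.03, limma adjusted p = 4.9e-05), and NME4 was lowest at −0.33 (limma adjusted p = 0.0011). Among 9 tested genes of nucleoside breakdown and salvage 6 fell, with AMPD3 lowest at −0.40 (limma adjusted p = 0.029). This count was 3 without the first or the third untreated or the third IFNβ library and 2 without the second IFNβ library, and AMPD3 passed in 11 of 16 alternatives, missing the threshold when any library but the third IFNβ one was left out. The nucleoside transporter SLC29A1 (ENT1) fell from 24.7 ± 0.344 to 19.5 ± 0.509 FPKM (limma adjusted p = 1.8e-04), and the other 3 tested transporters did not pass. Of 5 genes that clear damaged nucleotides, 3 fell and NUDT18 rose (0.36, limma adjusted p = 0.040). NUDT18 passed in 8 of 16 alternatives and missed the threshold without the first or the third untreated or the second or the third IFNβ library. Of the 7 tested genes in the nucleotidase list, 3 rose (NT5E, NT5DC3 and NT5C2) and 3 fell (NT5C3B, NT5C and NT5DC1), though NT5DC1 passed in 6 of 16 alternatives and missed the threshold when any library but the third IFNβ one was left out.

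**Figure D5:**
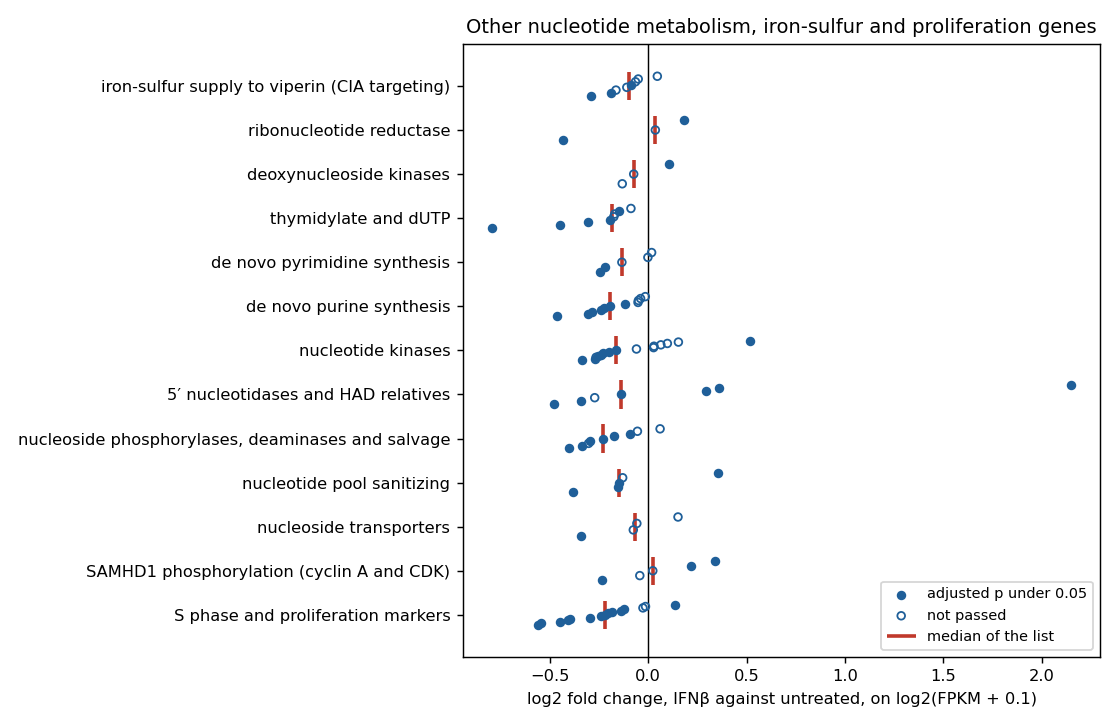
Log2 fold change after IFNβ, on log2(FPKM + 0.1), of the tested genes in 12 lists (nucleotide metabolism, iron-sulfur delivery and the cyclin A and CDK genes linked to SAMHD1 phosphorylation) and in a list of proliferation markers. Filled points passed an adjusted p of 0.05 (limma), open points did not, and red lines are list medians. Most points lie between −0.5 and 0, and the single point beyond 2 is NT5E.

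TYMS, RRM1 and TK1 are known to vary with the cell cycle, so markers of S phase and proliferation were read in the same libraries. Of 15 such genes 12 (80.0%) fell and 1 (6.67%) rose by adjusted p (limma), each by less than 2-fold. Over all tested genes, 17.5% fell and 15.2% rose by adjusted p (limma). These shares include genes at low level, and shares among genes of like level were not computed. The median log2 fold change of the markers was −0.22, against −0.07 over the genes with a mean of at least 10 FPKM. MCM6, of the replicative helicase, fell from 35.8 ± 0.666 to 24.5 ± 0.210 FPKM (log2 fold change −0.54, limma adjusted p = 9.3e-06) and MKI67 from 55.0 ± 1.37 to 47.3 ± 0.0861 FPKM (−0.22, limma adjusted p = 5.9e-04). CCNE1 (cyclin E1) was lowest at −0.56 (limma adjusted p = 0.0025), and CDT1 rose (0.14, limma adjusted p = 0.0017). The summed level of the 15 markers was 789 to 804 FPKM without and 692 to 698 FPKM with IFNβ, and its part in the lower levels of TYMS, DCK and CMPK1 was not tested. In bulk RNA, fewer cells in a phase and less RNA per cell cannot be told apart.

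Each library was divided by between 22848104 and 32915500 fragments, so that 1 fragment on a gene of 1 kb is 0.0304 to 0.0438 FPKM. The 8 mesenchymal markers of the line had a summed level of 902 to 960 FPKM in untreated and 878 to 919 FPKM in IFNβ libraries. VIM and MMP14 led this sum, while S100A4 was at 2.68 ± 0.647 FPKM without and 2.77 ± 0.334 FPKM with IFNβ. By adjusted p (limma) 3 of the 8 rose, FN1 most (log2 fold change 0.51), VIM fell (−0.29) and 4 did not pass. Markers of other cell types were near 0, since 9 myeloid markers summed to 1.04 to 1.14 FPKM over both groups, nearly all of it CSF1R, with 4 of the 9 at 0 throughout. The summed lymphoid, endothelial and epithelial markers were at most 0.150, 0.441 and 0.0552 FPKM.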

How the data were processed

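The authors extracted total RNA, enriched mRNA and sequenced paired-end libraries. The deposited FPKM values are theirs, 1 per gene and library, and no filter on them was seen. The submitters' processing notes name fastp, HISAT2, StringTie and GRCh38, without roles or versions. Annotation and strandedness are not given in the sources used here. The authors named DESeq2 for their differential expression analysis, which was not repeated. Of the 62710 gene IDs, 62639 had a symbol, and 4436 are not in GENCODE 29, so positions may differ from those used by the authors.

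The main comparison was limma (version 3.58.1, R 4.3.3) (lmFit, then eBayes with an intensity trend and no covariate). Its input was log2(FPKM + 0.1), restricted to genes whose mean reached 0.1 FPKM. An adjusted p under 0.05 with a log2 change of at least 1 was a call. Whole fragments were recovered from the steps between low FPKM values for all but 1 of the 35303 genes above 0, within 0.0001 of whole numbers, and limma-voom was run on them. The CMPK2 fragments could be fewer by a constant factor. No pair of libraries differed as little as sampling noise. The 3 against 3 design does not allow an exact permutation p under 0.10, so single-gene permutation tests were not run. The code was tested on simulated fragments with 200 changed genes, of which it called 189. Of its 213 calls 24 were false, 0 of them among genes with a mean of at least 20 fragments. Named genes are the 9 genes, genes beside RSAD2, called or extreme genes of the fixed lists, genes with shared exons, and the 3 nearest to RSAD2 and to CMPK2. A few further list genes (RRM2B, TK2, DGUOK, CIAO1, CDK1, CDK2, NT5C, NT5C2, NT5DC1, NT5DC3, CDKN1A, MCM6 and MKI67) were named after their values were seen. The genes and lists were chosen with earlier results of these data known. Sequences and starts are from RefSeq, GRCh38.p14. The 9 genes all matched by symbol. Some genes of the lists are not reported here by name.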

Additional observations from a re-analysis of the deposited data

How the results depend on the processing

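Over 16 alternatives (TYMP, NT5E and NRIR 15, since a minimum mean of 1 FPKM left them out), none of the 9 genes, NT5E, NRIR and RNF144A changed direction. The count of the 9 genes called was 5 instead of 6 with 1 FPKM added, with a minimum mean of 1 FPKM, with quantile normalization and without the third untreated library, in each case because of TYMP, and 9 with no fold threshold. The log2 fold change ranged from 7.11 to 13.14 for RSAD2, 4.34 to 5.54 for CMPK2, 3.63 to 4.06 for SAMHD1, 1.64 to 1.77 for NT5C3A, −1.51 to −1.39 for NT5DC2, −0.36 to −0.25 for TYMS and 0.42 to 1.34 for TYMP. DCK passed the adjusted p in 12 of the 16 and missed it, at up to 0.10, with limma-voom, without a trend, without the third untreated and without the first IFNβ library. Of all tested genes, 875 were called, 304 with 1 FPKM added, 425 with a minimum mean of 1 FPKM (11996 tested) and 6778 with no fold threshold. Pathway calls went from 1 to 0, 0 and 48 under those settings. Calls among the 6 tested genes within 500 kb of RSAD2 other than CMPK2 went from 1 to 0, 0 (2 tested) and 2. Proliferation marker calls went from 0 to 13 with no fold threshold. For these markers limma-voom also called 0, and 13 of 15 had an unadjusted limma p under 0.05. By adjusted p, the pathway genes that fell ranged from 31 to 44 and those that rose from 7 to 9. Leaving out each library gave 809 to 867 calls over all genes, 5 to 6 over the 9 genes, 1 over the pathway lists, 0 over the proliferation markers, 1 beside RSAD2 other than CMPK2 and 7 among the interferon check genes. Same-numbered libraries had correlations of 0.014, 0.023 and 0.031 of their deviations, and the other pairs had −0.029 to 0.006. Values this near 0 do not settle whether the numbers pair the libraries. A replicate block gave 829 calls, with 6 of the 9 genes. Quantile normalization moved the median of all genes to −0.06. RSAD2, NRIR, NT5E and TYMP rest on few untreated fragments (12, 11, 39 and 87 over the 3 libraries), so depth limits their log2 values.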
